A study of Mus musculus with 25 samples.

Results

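The genes described here are 28 members of cholesterol synthesis and sterol regulation, out of 36333 genes counted in a study of mouse hepatoblastoma (HB) and liver. They were chosen by name: 19 encode enzymes of the route from acetyl-CoA to cholesterol or of its prenyl branch. Another 4, called sensors here, encode the transcription factor SREBP2 and the proteins that hold or release it with sterol level. The last 5 encode proteins that move or esterify sterols. The study asked how HBs and livers respond to dietary dodecanedioic acid (DDDA), a medium-chain dicarboxylic acid, and polyadenylated RNA was sequenced from 5 mice per group. The HBs, from FVB mice, arose after Sleeping Beauty vectors were injected into the tail vein under pressure, carrying the Del90 mutant of β-catenin and YAP S127A, so each tumor grew from liver cells that took up both vectors. HBs of the DDDA diet came from mice given chow with 10% DDDA for 3 to 4 weeks (4 females and 1 male), and HBs of the standard diet from injected mice on unsupplemented chow (2 females and 3 males). Livers of the DDDA diet came from uninjected FVB mice on the same 10% DDDA chow for 3 to 4 weeks (2 females and 3 males), and livers of the standard diet from uninjected FVB mice on unsupplemented chow (3 females and 2 males). The labels give no ages. Because the livers came from uninjected mice, no tumor and liver came from the same animal.

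Cholesterol is made from acetyl-CoA through mevalonate, the prenyl diphosphates and squalene, which is closed into lanosterol and then trimmed, reduced and rearranged in the endoplasmic reticulum. The transcription factor SREBP2 drives nearly every gene of this route. When membrane sterols are low, SCAP escorts SREBP2 to the Golgi for cleavage, and when they are high, INSIG1 or INSIG2 holds SCAP in the endoplasmic reticulum. Liver makes much of the cholesterol of the body, and hepatocytes also turn it into bile acids, export it in lipoproteins and store it as esters.

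Because SREBP2 drives nearly every gene of the route, the DNA just before the start site is shown for 5 members named in the comparisons below. Whether SREBP2 acts on each printed member was not tested. The windows of Sc5d, Ebp, Scap and Srebf2, which were called between the tissues on both diets, are not shown. The windows hold 250 bases before the start given by RefSeq (build GRCm38.p6), written 5′ to 3′ on the strand of the gene. Capitals mark TCACNCCAC, a sterol regulatory element, and CCAAT, the box bound by NF-Y, a frequent partner of SREBP2, on either strand (ATTGG is CCAAT on the opposite strand). Hmgcs1 lies at chr13:119690101-119690350 on the plus strand, Idi1 at chr13:8885356-8885605 (plus), Msmo1 at chr8:64733579-64733828 (minus), Insig1 at chr5:28071162-28071411 (plus) and the outermost start of Insig2 at chr1:121332590-121332839 (minus).
Hmgcs1: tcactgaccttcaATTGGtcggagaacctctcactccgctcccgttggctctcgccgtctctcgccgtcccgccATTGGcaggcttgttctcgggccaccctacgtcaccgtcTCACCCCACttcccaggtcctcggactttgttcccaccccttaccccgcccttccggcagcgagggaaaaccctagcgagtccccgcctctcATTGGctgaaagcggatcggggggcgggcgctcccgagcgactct
Idi1: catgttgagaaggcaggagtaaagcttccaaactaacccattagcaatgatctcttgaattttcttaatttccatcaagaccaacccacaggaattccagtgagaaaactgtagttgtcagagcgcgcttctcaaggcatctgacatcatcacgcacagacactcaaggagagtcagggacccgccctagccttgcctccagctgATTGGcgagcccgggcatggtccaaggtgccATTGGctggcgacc
Msmo1: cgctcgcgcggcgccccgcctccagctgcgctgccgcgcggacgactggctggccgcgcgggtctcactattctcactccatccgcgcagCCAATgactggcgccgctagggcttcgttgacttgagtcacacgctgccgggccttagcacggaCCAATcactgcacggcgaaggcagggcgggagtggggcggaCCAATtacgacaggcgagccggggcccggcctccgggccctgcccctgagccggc
Insig1: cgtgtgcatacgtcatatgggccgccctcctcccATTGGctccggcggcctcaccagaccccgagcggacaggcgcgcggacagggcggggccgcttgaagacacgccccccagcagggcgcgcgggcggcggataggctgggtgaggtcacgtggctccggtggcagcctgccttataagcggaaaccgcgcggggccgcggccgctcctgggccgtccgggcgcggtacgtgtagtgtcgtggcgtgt
Insig2: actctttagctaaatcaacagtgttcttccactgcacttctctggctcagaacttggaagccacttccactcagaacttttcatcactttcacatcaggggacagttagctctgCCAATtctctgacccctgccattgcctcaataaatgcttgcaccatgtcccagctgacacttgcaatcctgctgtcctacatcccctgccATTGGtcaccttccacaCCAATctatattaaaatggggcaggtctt

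Of the 28 members, 22 had a promoter in the RefSeq table, with more than 1 start for Pmvk, Dhcr7, Scap and Insig2. Only Hmgcs1 held TCACNCCAC, at bases -137 to -129 from its start, against 1.22% of all 27025 genes in the table. CCAAT was present in 20 of the 22 (90.9%), against 37.5% of all genes, and GGGCGG, the GC box bound by Sp1, in 19 (86.4%), against 35.4%. A gene was counted where any of its starts held the motif. In the printed windows CCAAT was found 3 times in Hmgcs1, Msmo1 and Insig2, at 2 places in Idi1 and at 1 in Insig1. The other starts of Insig2, at chr1:121328025-121328274 and chr1:121327679-121327928, held 0 CCAAT. These are matches of letters, each motif counted on its own and on both strands, and a window without a match says only that these letters are not in it.

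The libraries held 16548771 to 29783324 counted reads. Levels below are CPM, the usual scaling of a read count to the size of its library, adjusted by trimmed means (TMM) over all 20 libraries, and differences between groups are log2 fold changes from edgeR with their SE. A gene was called where its p-value, adjusted by Benjamini-Hochberg over all genes tested, was under 0.05. Sequencing of the standard diet used 1 flow cell and that of the DDDA diet 2 different ones, which means that effects of diet and of run cannot be told apart. Liver DL03 and HB DT3168 shared a flow cell apart from the other 8 DDDA libraries. HB DT2264 stood apart from the other 4 DDDA HBs. Its hepatocyte markers summed to 23356 CPM, against 32030 to 49598 CPM in the others, and its fibroblast markers to 2997 CPM, against 61.8 to 554 CPM. In 20 of 20 libraries Xist and Ddx3y fitted the labelled sex. The annotation overlaps 6 members with another gene, on the opposite strand for Fdft1, Lss, Insig1 and Npc1 and on the same strand for Tm7sf2 and Srebf2, and whether strand was used in counting is not given in the sources used here.

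In each of the 4 groups 1 library was the lowest for at least 13 of the 19 enzymes, and the heat map of all members shows these libraries. DT2264 was the lowest DDDA HB for 18 of the 19 enzymes and the highest for Ggps1. Among standard diet HBs s1799 was lowest for all 19, and among DDDA livers the male DL05 was highest for all 19. The females DL01 and DL02 were lowest of the DDDA livers for 16 and 3 enzymes. Summed over the 19 enzymes, the deposited TPM (a like share, corrected for transcript length) ran from 1068 in DT2264 to 7482 in DT2277 among DDDA HBs, against 2290 to 4034 in standard diet HBs. In livers the sum ran from 1496 to 5673 TPM on the DDDA diet, against 1747 to 2669 TPM on the standard diet. Within each tissue the DDDA libraries therefore spanned a wider range, both below and above the standard diet.

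**Figure D1:**
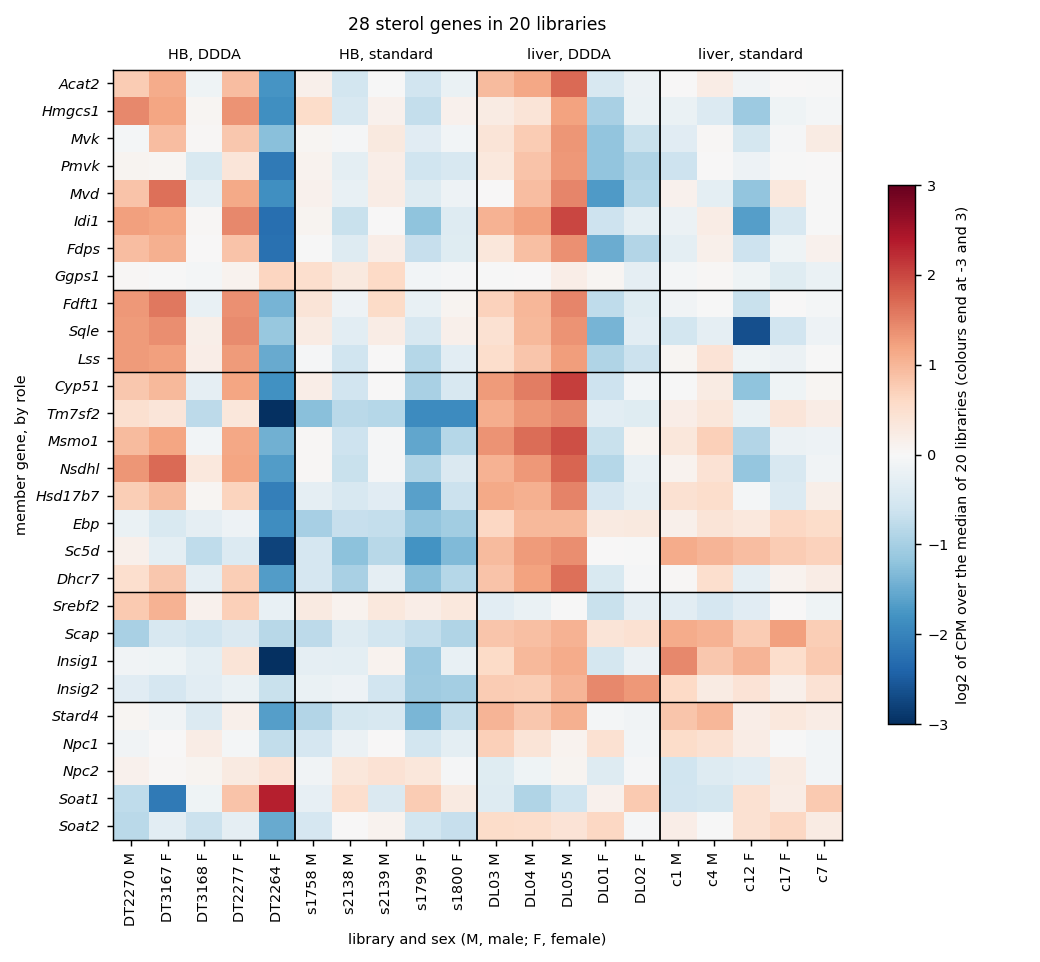
Level of the 28 members (vertical, by role) in 20 libraries (horizontal, by group and sex). Colour is the log2 of TMM-scaled CPM over the median of the 20 libraries, and DT2264 is the lowest DDDA HB for 18 of 19 enzymes while DL05 is the highest DDDA liver for all 19.

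The first comparison asks which sterol genes differ between tumor and liver. On the standard diet 1 of the 28 members was higher in HBs than in livers (28.2% of all 13830 genes tested were) and 11 were lower (26.8% of all genes). The lower members lay late in the pathway and among the sensors: 5 of the 8 enzymes from lanosterol to cholesterol, 3 of 4 sensors and 3 of 5 transport and ester genes, with none of the 8 mevalonate and prenyl steps and none of the 3 from squalene to lanosterol. The median log2 fold change was 0.01 over the mevalonate and prenyl steps and -0.82 over the 8 late enzymes, beside 0.02 over all genes tested. These differences are relative to the other genes. HBs had TMM factors of 1.20 to 1.41 and standard diet livers 0.71 to 0.89, and with library totals alone as the scale the median of all genes was 0.70 and the members split into 11 higher (63.5% of all genes) and 6 lower (9.39%). A gene lower by both scales was thus lower than the rest and lower per read, and these were Tm7sf2, Ebp, Sc5d, Scap, Insig1 and Stard4. Cell type markers moved with this contrast: 10 hepatocyte markers, none at 0, summed to 23717 to 45082 CPM in HBs, against 105101 to 157389 CPM in livers (6 called lower), and 8 cholangiocyte markers to 283 to 861 CPM in HBs, against 26.1 to 37.1 CPM in livers (7 called higher). Of 8 proliferation markers, at 207 to 455 CPM in HBs, against 42.7 to 116 CPM in livers, 7 were called higher, and of 8 stellate cell and fibroblast markers 5 were higher and 2 lower. Their part in the sterol genes was not tested.

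No mevalonate step was called between the tissues in the main edgeR fits, with TMM scaling and every library of the 2 groups. Hmgcs1, the HMG-CoA synthase at the head of the pathway, had 360, 424, 642, 651 and 861 CPM in standard diet HBs, against 280, 444, 518, 539 and 569 CPM in standard diet livers. The groups overlapped, and the log2 fold change of 0.33 (SE 0.26, adjusted p from edgeR 0.30) was not called. By library totals it was 1.02 (adjusted p 0.0051). Idi1, the isopentenyl diphosphate isomerase, was at 142, 205, 250, 331 and 344 CPM in HBs, against 105, 234, 290, 323 and 381 CPM in livers. Its log2 fold change was -0.06 (SE 0.33, adjusted p 0.89), with full overlap. Acat2, the cytosolic thiolase that condenses 2 acetyl-CoA units, had -0.23 (adjusted p 0.21), the mevalonate kinase Mvk 0.10 (0.62), the phosphomevalonate kinase Pmvk -0.04 (0.85) and the decarboxylase Mvd 0.07 (0.82). Fdps, which makes farnesyl diphosphate, was at -0.09 (0.74) and Ggps1, which extends it to geranylgeranyl diphosphate for protein prenylation, at 0.42 (0.054). By library totals Acat2, Mvk, Pmvk, Mvd, Fdps and Ggps1 were all called higher, at 0.46, 0.77, 0.63, 0.75, 0.60 and 1.10, so whether they were called higher than in liver rests on the scale. Acat2 lies beside a near-identical copy, Acat3, at 84.1 to 203 CPM in these HBs and 384 to 576 CPM in these livers, and how reads were split between them is not given in the sources used here.

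The squalene steps had positive but uncalled values for Fdft1, the squalene synthase (0.32, SE 0.18, adjusted p 0.16), and Sqle, the squalene epoxidase (0.62, SE 0.36, adjusted p 0.16). Lss, the cyclase that makes lanosterol, was at -0.36 (SE 0.18, adjusted p 0.12). Sqle had 113 to 189 CPM in HBs, against 25.5 to 144 CPM in livers, where the single low value belonged to the female c12.

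The 5 lower enzymes act after lanosterol. Sc5d, the sterol desaturase near the end of the pathway, had 113, 156, 167, 221 and 276 CPM in standard diet HBs, against 629, 664, 739, 791 and 851 CPM in standard diet livers. Every HB was below every liver. Its log2 fold change of -1.97 (SE 0.23, adjusted p 2.8e-05) had the largest size among the 28 members. Ebp, the sterol isomerase that acts just before it, had 75.4, 83.3, 86.2, 105 and 106 CPM in HBs, against 191, 213, 225, 250 and 264 CPM in livers, again without overlap (-1.32, SE 0.14, adjusted p 1.5e-05). Tm7sf2, a sterol reductase acting after the demethylase step, had 43.4 to 90.6 CPM in HBs, against 139 to 206 CPM in livers (-1.45, SE 0.23, adjusted p 2.7e-04). Dhcr7, the reductase that yields cholesterol itself, fell by 0.86 on the log2 scale (SE 0.20, adjusted p 0.0033) and Hsd17b7, the ketosterol reductase, by 0.77 (SE 0.25, adjusted p 0.022). Neither held by library totals, at -0.18 (Dhcr7, adjusted p 0.39) and -0.08 (Hsd17b7, adjusted p 0.75), and Hsd17b7 was not called without liver c4 (-0.67, adjusted p 0.051). Cyp51, the lanosterol demethylase, Msmo1, the methylsterol oxidase, and Nsdhl, the dehydrogenase that works with it, had -0.17, -0.55 and -0.20 with adjusted p of 0.62, 0.18 and 0.56.

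Among the sensors, Srebf2 was the 1 member higher in HBs. This gene, which encodes SREBP2, had 141, 150, 160, 164 and 165 CPM in standard diet HBs, against 93.5, 104, 105, 120 and 132 CPM in standard diet livers, with all HBs above all livers (0.50, SE 0.12, adjusted p 0.0036). Its escort Scap went the other way. Scap had 66.1, 71.6, 75.4, 85.2 and 94.9 CPM in HBs, against 208, 210, 254, 267 and 291 CPM in livers (-1.64, SE 0.14, adjusted p 4.6e-06). Insig1 had 174, 304, 306, 319 and 398 CPM in HBs, against 538, 639, 655, 757 and 1016 CPM in livers (-1.26, SE 0.23, adjusted p 7.7e-04). Insig2 had 49.0 to 92.2 CPM in HBs, against 116 to 157 CPM in livers (-0.92, SE 0.19, adjusted p 0.0017), and by library totals its value was -0.25 (adjusted p 0.22). None of these 3 genes overlapped between the tissues. Of the 28 members, 1 had all HBs above all livers (21.3% of the 14632 genes with at least 10 reads in 5 libraries) and 8 had all HBs below (19.5%). The gene of SREBP2 and those of its escort and anchors thus differed in opposite directions, whichever of the 2 scales was used, although the Insig2 difference was called on only 1 of them.

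Of the transport and ester genes, Stard4, a cytosolic sterol carrier, had 71.0 to 132 CPM in standard diet HBs, against 211 to 365 CPM in standard diet livers (-1.31, SE 0.21, adjusted p 3.3e-04). Npc1 and Npc2 encode the pair of proteins that pass cholesterol out of lysosomes. Npc1 had 158 to 233 CPM in HBs, against 216 to 338 CPM in livers (-0.53, SE 0.17, adjusted p 0.018), and was not called without HB s1758 (-0.48, adjusted p 0.050). Npc2 had 109 to 158 CPM in HBs, against 76.4 to 138 CPM in livers (0.42, SE 0.18, adjusted p 0.063), and was called without HB s1758, HB s1800 or liver c17 (0.48 to 0.54). Soat1 and Soat2 encode the 2 enzymes that esterify cholesterol. Soat2 had 24.7 to 42.9 CPM in HBs, against 39.6 to 61.2 CPM in livers (-0.60, SE 0.18, adjusted p 0.014), and Soat1 was scarce in both, at 5.2 to 11.8 CPM in HBs and 4.7 to 12.04 CPM in livers (0.07, adjusted p 0.87). By library totals Npc1 and Soat2 turned to 0.16 (Npc1, adjusted p 0.29) and 0.06 (Soat2, adjusted p 0.78).

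**Figure D2:**
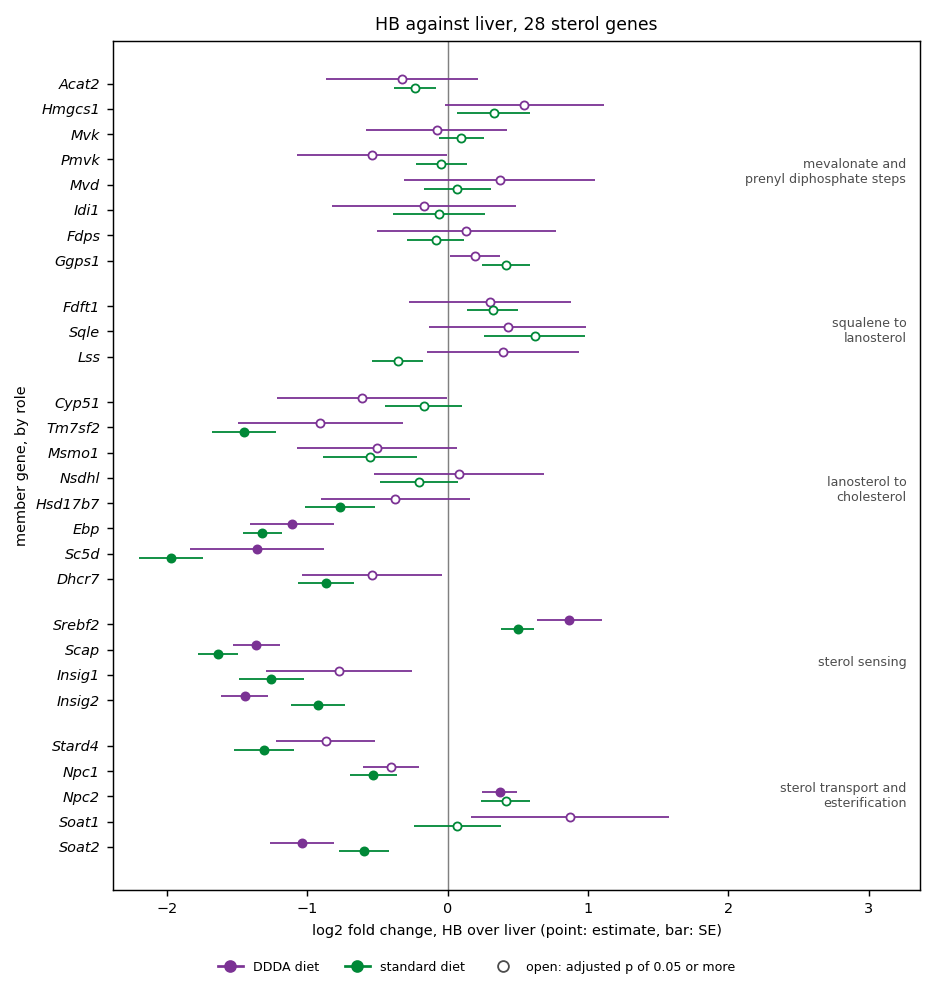
Log2 fold change of HB over liver (horizontal) for the 28 members (vertical, by role), with DDDA diet above standard diet for each gene. Points are edgeR estimates, bars SE and filled points called, and the filled points to the left of 0 lie among late enzymes, sensors and transport genes.

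On the DDDA diet the same contrast gave 2 members higher (26.3% of all 13415 genes) and 5 lower (23.4%). Srebf2 was again higher, at 114, 143, 216, 226 and 271 CPM in DDDA HBs, against 83.4, 106, 109, 114 and 132 CPM in DDDA livers (0.87, SE 0.23, adjusted p 0.010). The groups overlapped at the low end. Npc2 had 119 to 156 CPM in HBs, against 89.2 to 123 CPM in livers (0.37, SE 0.13, adjusted p 0.031), and was not called without DL01, DL03, DL04, DT2277 or DT2264 (0.31 to 0.38). Scap had 63.0 to 91.7 CPM in HBs, against 162 to 255 CPM in livers (-1.36, SE 0.17, adjusted p 1.4e-04). Insig2 had 64.7, 72.5, 81.4, 83.3 and 90.2 CPM in HBs, against 173, 176, 208, 255 and 278 CPM in livers (-1.45, SE 0.17, adjusted p 1.1e-04). Ebp, Soat2 and Sc5d were the other 3 lower members, at -1.11 (Ebp, adjusted p 0.011), -1.04 (Soat2, adjusted p 0.0035) and -1.36 (Sc5d, adjusted p 0.036). Sc5d was not called without any 1 of DL03, DL04, DL05, DT3167, DT3168 or DT2277, with values of -1.19 to -1.44.

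Scap and Insig2 were the members called lower by library totals as well on this diet, at -0.70 (Scap) and -0.82 (Insig2), when 8.59% of all genes were lower. SEs of the 19 enzymes were wide here, 0.18 for Ggps1 and 0.30 to 0.68 for the others, against 0.14 to 0.36 on the standard diet. The spread was visible among HBs in DT2264 and, less far, DT3168, and among livers in the split between males and females. Summed over the 19 enzymes, DT2264 had 1068 TPM and DT3168 3676 TPM, against 6510 to 7482 TPM in the other DDDA HBs. The part of each in the SEs was not tested. Without DT2264, 1 member was higher (26.0% of all genes) and 5 lower (23.4%). In females alone (4 HBs and 2 livers) 0 members were higher (6.02%) and 2 lower (5.93%). On this diet too 7 of 10 hepatocyte markers were lower in HBs, with 7 cholangiocyte markers and all 8 proliferation markers higher, and their part in the sterol genes was not tested. The tissue differences of both diets share no libraries, and a test of diet by tissue over all 20 called 0 members (0% of all 14502 genes). At an unadjusted p under 0.05 it passed 1 member, Insig2 (-0.55, SE 0.26, adjusted p 0.81), and 6.05% of all genes.

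**Figure D3:**
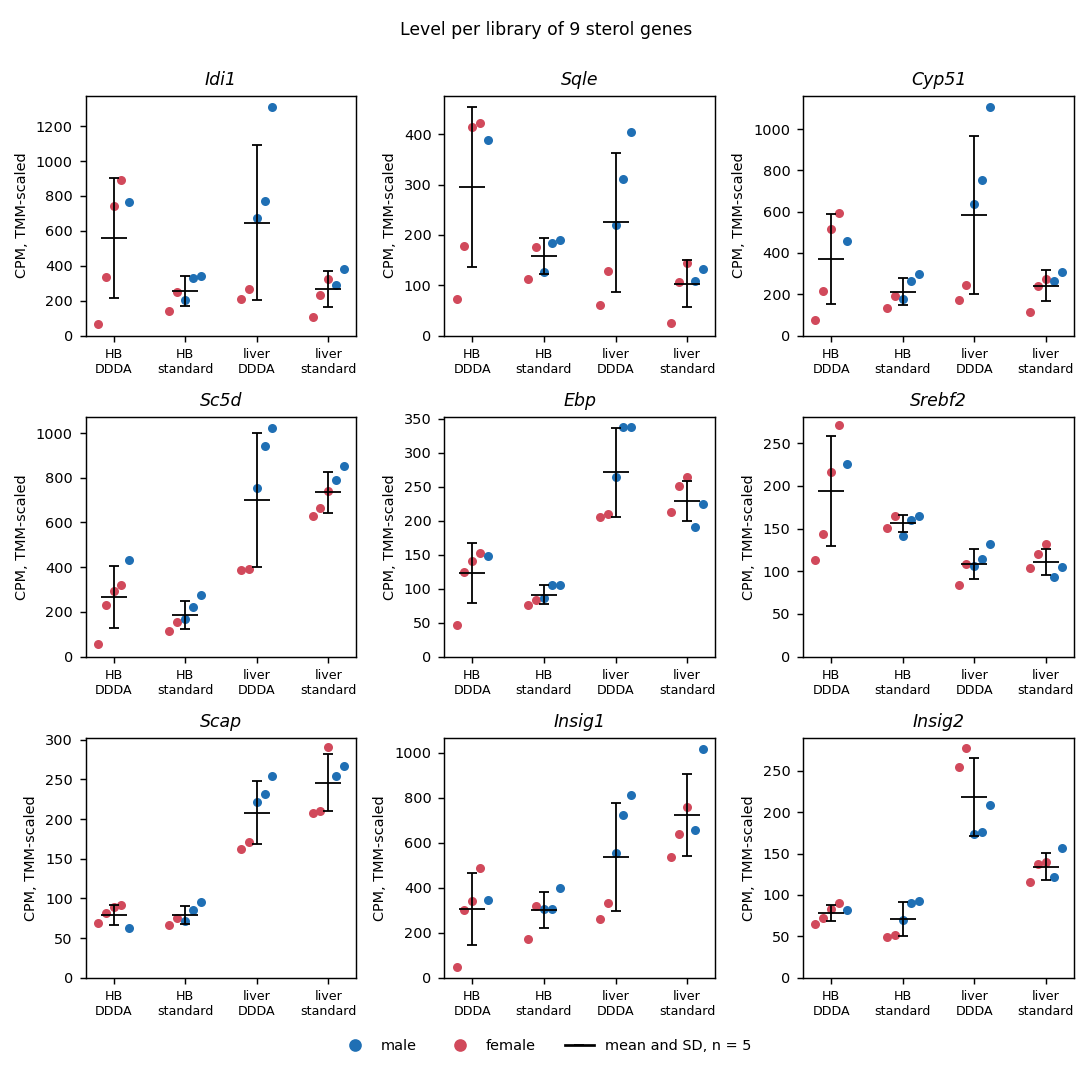
TMM-scaled CPM (vertical, from 0) of 9 members in each library, by group (horizontal) and sex (colour), with the mean and SD of 5 libraries in black. Male DDDA livers lie above female DDDA livers for Idi1, Sqle, Cyp51, Sc5d, Ebp, Scap and Insig1, and below them for Insig2.

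The next comparison asks whether these genes differed with DDDA in HBs. No member was called by edgeR in either direction, where 0.0994% of all 14082 genes were higher and 0.199% lower. At an unadjusted p under 0.05 there were 4 members (16.3% of all genes), Lss, Msmo1, Nsdhl and Dhcr7, all with positive values, and DESeq2 also called 0. The DDDA HBs held more females than the standard diet HBs. In females alone 0 members were called, as were 0 of all 14802 genes. Fold changes were positive for 17 of 19 enzymes (7954 of all 14082 genes), with a median of 0.80, beside 0.06 over all genes tested. The enzymes were measured in the same libraries, so their signs are not separate observations. Nsdhl had 30.6, 123, 222, 244 and 320 CPM in DDDA HBs, against 52.1, 62.2, 72.0, 95.2 and 101 CPM in standard diet HBs. The 4 DDDA HBs other than DT2264 lay above all standard diet HBs and DT2264 lay below them all (1.28, SE 0.48, adjusted p 0.23). Lss had 46.4, 151, 310, 319 and 319 CPM in DDDA HBs, against 73.1, 87.0, 107, 130 and 133 CPM in standard diet HBs (1.09, SE 0.43, adjusted p 0.25). Sqle had 72.7, 178, 388, 416 and 422 CPM in DDDA HBs, against 113, 127, 175, 184 and 189 CPM in standard diet HBs (0.89, SE 0.41, adjusted p 0.32). DT3168 lay between DT2264 and the other 3 in each of these genes.

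Without DT2264, 2 members were called higher (0.421% of all genes), Nsdhl at 1.55 (adjusted p 0.041) and Lss at 1.36 (adjusted p 0.043). All 4 remaining DDDA HBs lay above all standard diet HBs in 5 of 19 enzymes (5.42% of the 14632 genes). With DT2264 kept, this held in 0 of 19 enzymes (2.4% of the 14632 genes). The count without a library was made for DT2264 alone, which was the lowest DDDA HB for 18 of the 19 enzymes. The sensors had smaller values in this contrast, with Srebf2 at 0.30 (adjusted p 0.51), Scap at -0.01 (0.99), Insig1 at 0.00 (0.998) and Insig2 at 0.14 (0.75). Insig1 had 47.0 CPM in DT2264 and 302 to 488 CPM in the other DDDA HBs, against 174 to 398 CPM in standard diet HBs. Soat1, the esterifying enzyme of many cell types outside hepatocytes, had 35.0 CPM in DT2264 and 1.6 to 12.7 CPM in the other DDDA HBs, against 5.2 to 11.8 CPM in standard diet HBs (0.56, SE 0.69, adjusted p 0.73). DT2264 also had the highest summed endothelial (490 CPM, against 32.7 to 119 CPM in the other DDDA HBs), macrophage (825 CPM, against 131 to 438 CPM) and cholangiocyte markers (1604 CPM, against 111 to 470 CPM), and their part in its low enzyme levels was not tested. In bulk tissue, fewer cells of a type and less RNA per cell cannot be told apart.

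In livers the DDDA diet gave 1 member higher (4.27% of all 12803 genes) and 0 lower (3.07%), with 6 members at an unadjusted p under 0.05 (24.8% of all genes). These are the same DDDA livers as in the tissue comparison. The called gene was Insig2, with 173, 176, 208, 255 and 278 CPM in DDDA livers, against 116, 121, 138, 140 and 157 CPM in standard diet livers. All DDDA livers lay above all standard diet livers (0.71, SE 0.16, adjusted p 0.026), a separation seen in 4.48% of the 14632 genes. The call did not hold without c12, c17, c7 or DL05 (0.66 to 0.71, adjusted p 0.050 to 0.066). The 19 enzymes had a median of 0.64, beside 0.00 over all genes tested, and none was called. Of them, 18 had positive values (6442 of all 12803 genes). The largest were Cyp51 (1.28, SE 0.46, adjusted p 0.12), Idi1 (1.27, SE 0.49, adjusted p 0.13) and Sqle (1.12, SE 0.51, adjusted p 0.20). For these genes the DDDA livers did not form 1 group: the 2 females lay within the range of standard diet livers and the 3 males above it.

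That split was examined by comparing male with female livers within each diet, a comparison chosen after the values had been seen. Among DDDA livers 18 of 28 members were higher in the 3 males than in the 2 females (2.50% of all 13059 genes) and 1 was lower (3.32%). They comprised 16 of the 19 enzymes, all but Hmgcs1, Ggps1 and Ebp, together with Insig1 and Stard4. The median over the 19 enzymes was 1.62, beside -0.02 over all genes tested. All 3 males lay above both females in 18 of 19 enzymes, where 21.4% of the 14632 genes showed that separation. The exception was Ggps1, with 7.4, 7.6 and 8.7 CPM in males, against 6.2 and 7.9 CPM in females.

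The values ran through the whole route. Hmgcs1 had 704, 776 and 1361 CPM in DDDA males, against 303 and 515 CPM in DDDA females (1.17, SE 0.35, adjusted p 0.091). Idi1 had 676, 773 and 1312 CPM in males, against 211 and 265 CPM in females (1.91, SE 0.30, adjusted p 0.017). Fdps had 499, 735 and 1014 CPM in males, against 140 and 213 CPM in females (2.04, SE 0.33, adjusted p 0.017). For all 3, every male lay above either female. Mvd had the largest fold change of the members, 2.10 (SE 0.44, adjusted p 0.038), with 56.4, 108 and 156 CPM in males, against 17.4 and 31.2 CPM in females. Sqle had 220, 311 and 406 CPM in males, against 60.7 and 128 CPM in females (1.69, SE 0.37, adjusted p 0.041). Cyp51 had 638, 755 and 1109 CPM in males, against 171 and 246 CPM in females (1.96, SE 0.28, adjusted p 0.012). Mvd yields isopentenyl diphosphate, Sqle the epoxide of squalene and Cyp51 the earliest demethylated sterol. Msmo1 had 502, 636 and 760 CPM in males, against 125 and 209 CPM in females (1.88, SE 0.28, adjusted p 0.012). Tm7sf2 had 338, 403 and 435 CPM in males, against 125 and 129 CPM in females, and the smallest adjusted p of the members (1.59, SE 0.15, adjusted p 0.0018).

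Insig1 and Insig2, whose proteins both anchor SCAP, differed in opposite directions between the sexes. Insig1 had 554, 724 and 810 CPM in DDDA males, against 260 and 330 CPM in DDDA females (1.20, SE 0.21, adjusted p 0.021). Insig2 had 173, 176 and 208 CPM in males, against 255 and 278 CPM in females (-0.56, SE 0.12, adjusted p 0.044). Srebf2 itself had 106, 114 and 132 CPM in males, against 83.4 and 109 CPM in females, with overlap (0.25, SE 0.16, adjusted p 0.39), and Scap 221 to 255 CPM in males, against 162 and 171 CPM in females (0.46, SE 0.12, adjusted p 0.064). Stard4 had 321 to 387 CPM in males, against 172 and 178 CPM in females (1.01, SE 0.13, adjusted p 0.0076). Npc1, Npc2 and Soat2 had values of 0.18, 0.03 and 0.14 (adjusted p 0.65, 0.94 and 0.69), and Soat1 of -1.15 (adjusted p 0.053).

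**Figure D4:**
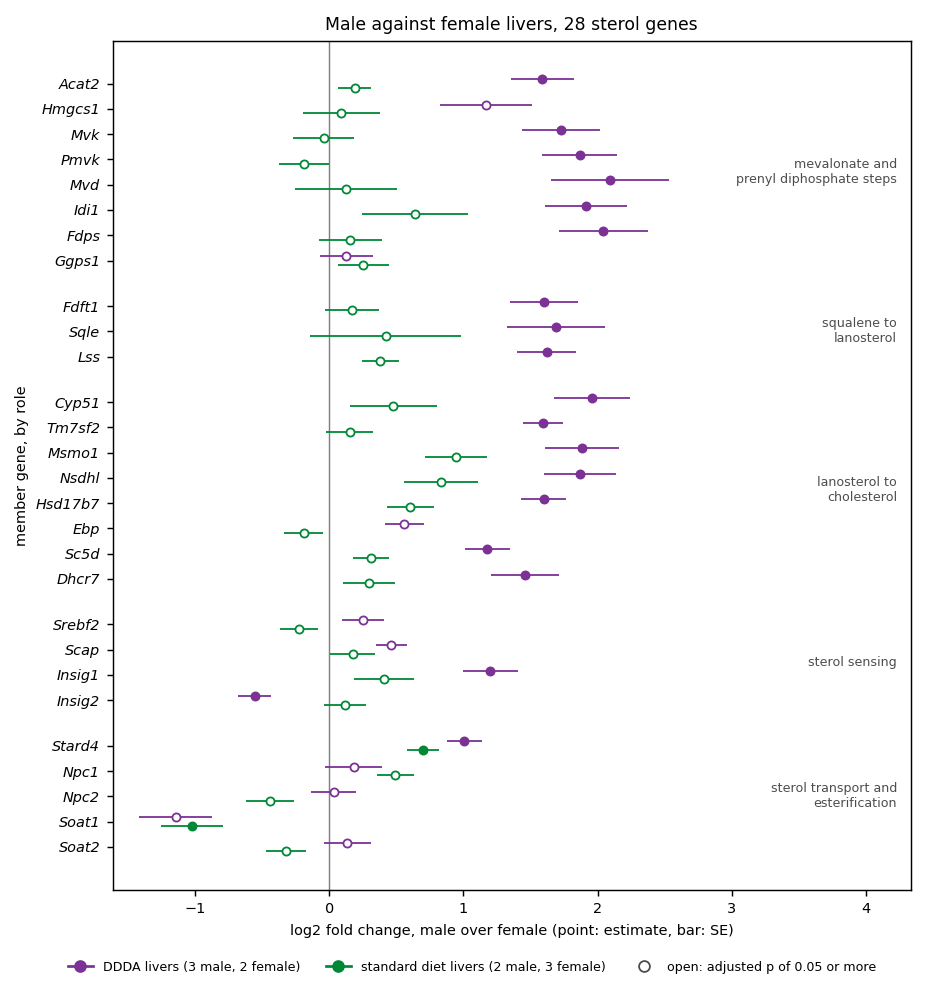
Log2 fold change of male over female livers (horizontal) for the 28 members (vertical, by role), with DDDA livers above standard diet livers for each gene. Points are edgeR estimates, bars SE and filled points called: 19 members are filled for DDDA livers and 2, Stard4 and Soat1, for standard diet livers.

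Among standard diet livers the same contrast gave 1 member higher in the 2 males than in the 3 females (2.91% of all 13275 genes), Stard4 (0.70, SE 0.12, adjusted p 0.021), and 1 lower (2.48%), Soat1 (-1.02, SE 0.23, adjusted p 0.049). Neither was called without c1, c4, c17 or c7 (0.62 to 0.78 for Stard4 and -0.88 to -1.17 for Soat1). No enzyme was called, 4 had an unadjusted p under 0.05 (25.5% of all genes), and the median over 19 enzymes was 0.25. Idi1 had 290 and 381 CPM in standard diet males, against 105, 234 and 323 CPM in standard diet females (0.64, SE 0.40, adjusted p 0.35). Without the female c12 the number of members higher was 3 (8.27% of all genes).

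Relative to livers of their own sex on the standard diet, DDDA males were higher in most enzymes and DDDA females lower in a smaller number. All DDDA males lay above both standard diet males in 16 of 19 enzymes (20.6% of the 14632 genes), and both DDDA females lay below all standard diet females in 8 of 19 (21.6%). Both held in 7 enzymes (2.06%). For Fdps the DDDA males had 499 to 1014 CPM, against 322 and 442 CPM in standard diet males, and the DDDA females 140 and 213 CPM, against 256 to 432 CPM in standard diet females. A test of diet by sex over the 10 livers, also chosen after the values were seen, called 0 of 28 members with edgeR (0.0439% of all 13676 genes were higher and 0.0292% lower), while 19 members had an unadjusted p under 0.05 (14.5% of all genes). The largest term was that of Pmvk (2.10, SE 0.38, adjusted p 0.10) and the smallest adjusted p that of Tm7sf2 (1.49, SE 0.24, adjusted p 0.075). DESeq2 called 12 members (1.22% of all genes higher), and edgeR on every gene with at least 1 count called 12 (0.496%).

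The number higher in male DDDA livers fell to 3 without DL04 (0.522% of all genes), namely Tm7sf2, Hsd17b7 and Stard4, although the values moved little: Idi1 was at 2.01 (adjusted p 0.063) and Cyp51 at 2.02 (adjusted p 0.055). Without DL03, on another flow cell than the other 4 DDDA livers, 17 members were higher (0.883% of all genes). Mvd (1.70), Sqle (1.44) and Insig1 (1.07) were also lost without DL05, Sqle (1.89) without DL03, and Insig2 without any 1 of the 5 livers (-0.50 to -0.65). Where DL01 or DL02 is left out, 1 female remains and is assumed to vary like the males, as is 1 male like the females where c1 or c4 is left out. The sexes also differed in cell type markers. Hepatocyte markers summed to 147170 to 160525 CPM in male DDDA livers, against 91979 and 112368 CPM in female ones, and 3 of 10 were called higher. Macrophage markers summed to 204 to 269 CPM in males, against 353 and 665 CPM in females, with 5 of 8 called lower, and neutrophil markers to 1.37 to 2.19 CPM in males, against 5.49 and 67.5 CPM in the females DL01 and DL02. Stellate cell and fibroblast markers summed to 199 to 235 CPM in males, against 285 and 317 CPM in females, with 4 of 8 called lower. The part of these cells in the sterol genes was not tested. Macrophage markers were also lower in males on the standard diet (5 of 8 called).

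Other genes of sterol and isoprenoid metabolism, 38 in 3 lists, gave 3 higher (28.2% of all genes) and 17 lower (26.8%) in HBs than in livers on the standard diet, and 4 higher (26.3%) and 15 lower (23.4%) on the DDDA diet. Among 15 genes of sterol transport, efflux and esters, 2 were higher (28.2% of all genes) and 8 lower (26.8%) on the standard diet. On the DDDA diet 2 of the 15 were higher (26.3%) and 6 lower (23.4%). Gramd1b, a carrier that moves plasma membrane cholesterol to the endoplasmic reticulum, was 3.77 (SE 0.21) higher on the standard diet and 4.26 (SE 0.29) on the DDDA diet on the log2 scale. Its relative Gramd1c was at -2.46 (SE 0.30) and -2.28 (SE 0.28) on those diets, and Gramd1a at 1.04 (SE 0.13) and 1.12 (SE 0.13), all with adjusted p from edgeR of 1.4e-04 or less. In the list of 11 genes of SREBP processing, sterol-regulated degradation and LXR, 1 was higher (28.2%) and 3 lower (26.8%) on the standard diet. On the DDDA diet 0 of the 11 were higher (26.3%) and 3 lower (23.4%). Nr1h3, the oxysterol receptor LXRα, was at -0.92 (SE 0.20, standard diet) and -0.84 (SE 0.17, DDDA diet). Rnf145, a ubiquitin ligase, was at 0.66 (SE 0.15, standard diet). In the isoprenoid branch, of 12 genes, 6 were lower on each diet (26.8% of all genes on the standard diet and 23.4% on the DDDA diet), with 0 higher on the standard diet (28.2%) and 2 on the DDDA diet (26.3%). Pdss2, which builds the tail of ubiquinone, was at -0.77 (SE 0.13) and Rabggta, a subunit of the enzyme that prenylates Rab proteins, at -0.69 (SE 0.14) on the standard diet.

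The diet and the sex of the liver left these lists largely uncalled. In HBs the DDDA diet gave 0 of 38 calls (0.0994% of all genes were higher and 0.199% lower), with 7 at an unadjusted p under 0.05 (16.3% of all genes). In livers it gave 2 of 38 higher (4.27% of all genes) and 0 lower (3.07%), with 13 at an unadjusted p under 0.05 (24.8%). The 2 were Abcg5, a subunit of the transporter that exports sterols into bile (0.84, SE 0.23, adjusted p 0.047), and Pdss2 (0.45, SE 0.09, adjusted p 0.016). Between male and female DDDA livers, Abcg5 (0.76, SE 0.16, adjusted p 0.036) and Abcg8, the other subunit of that transporter (1.20, SE 0.24, adjusted p 0.034), were higher in males and Gramd1c (-0.67, SE 0.14, adjusted p 0.038) was lower. None of the 12 isoprenoid genes and none of the 11 genes of the SREBP list was called between the sexes, where 2.50% of all genes were higher and 3.32% lower.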

How the data were processed

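Polyadenylated RNA of 5 mice per group was sequenced from directional libraries. The authors deposited 1 table with counts of reads per gene as total counts for 20 libraries (16548771 to 29783324 per library), with RPKM and TPM values that the authors computed from them. RPKM values were read in but not used in any comparison. The labels name the build GRCm38.p6, and no aligner or counter was given in the sources used here. The table also holds 20 CPM columns, which were not used, and the authors' own fold changes and p-values, which were not used. The 5 HBs kept on DDDA for longer were not analysed here.

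Counts were tested with edgeR 4.0.16 (quasi-likelihood F-test, filterByExpr, TMM factors, Benjamini-Hochberg over all genes kept, threshold 0.05) on the 2 groups compared, without covariates, and on all 20 libraries for diet by tissue. Alternatives were DESeq2 1.42.0, RLE factors, no filter beyond 1 count, 1 fit of all 20 libraries, sex as a covariate, a length trend removed (lowess span 0.3), each library left out, and the libraries of the third flow cell left out. Added after seeing the values were library totals without TMM factors, female mice only, and the comparisons by sex. Nothing says the mice of a group were handled separately, so p-values measure the spread between these libraries. All 28 members are named. Of 38 other genes in 3 lists, at most 3 called genes per list and tissue comparison are named by smallest p, and those called in smaller numbers were chosen after their values were seen. The members and lists were chosen with earlier results of these data known. Promoters are those of RefSeq. Figures were drawn with matplotlib 3.10.9.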

Additional observations from a re-analysis of the deposited data

Results flagged for a closer look

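In 112 sets of 5 libraries (28 members in 4 groups), 3 held a library whose distance from the rest passed Dixon's 95% critical value of 0.71, where chance gives about 1 in 20 sets. Ggps1 was highest in DDDA HB DT2264, at 11.7 CPM, with 7.30 to 8.14 CPM in the other DDDA HBs. Ebp was lowest in the same HB, at 46.8 CPM, with 124 to 153 CPM in the others. Fdft1 was lowest in standard diet liver c12, at 120 CPM, with 176 to 193 CPM in the other standard diet livers.

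In 7 members, all of them enzymes, every male DDDA liver lay above both male standard diet livers while both female DDDA livers lay below every female standard diet liver, a pattern seen in 2.06% of the 14632 genes with at least 10 reads in 5 libraries. The difference between the sexes in the log2 fold change of the diet was 1.44 for Acat2, 1.82 for Mvk, 2.10 for Pmvk, 1.93 for Fdps, 1.28 for Lss, 1.49 for Tm7sf2 and 0.79 for Ebp. By edgeR none of these terms was called, with adjusted p of 0.075 (Tm7sf2) to 0.20 (Ebp), and DESeq2 called all 7, a comparison chosen after the values were seen. The design had 2 or 3 livers of each sex per diet.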

How the results depend on the processing

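No paired analysis was possible, because the livers came from uninjected mice and the labels give no replicate numbers shared between groups. Of 41 called values of members, under 543 alternatives 473 kept call and direction, 68 were no longer called and 2 turned (Npc1 and Soat2), and 74 values were called only under an alternative. The cause of these moves was not tested, except that library totals shift every gene alike. With library totals alone, members in HBs against livers on the standard diet were 11 higher (63.5% of all genes) and 6 lower (9.39%). With TMM they were 1 and 11. On the DDDA diet 2 were lower (8.59%), and 5 with TMM. DDDA livers had 0 higher than standard diet livers (176 of 12803 genes), and 1 with TMM. Male against female livers had 2 lower on the DDDA diet (897 of 13059 genes) and 2 on the standard diet (978 of 13275). With TMM it was 1 on each diet. By library totals Acat2 turned to 0.46, Pmvk to 0.63, Fdps to 0.60, Lss to 0.34, Msmo1 to 0.15, Npc1 to 0.16 and Soat2 to 0.056 in HBs against livers on the standard diet. With the length trend removed Pmvk was at 0.053 and Fdps at 0.0081. Members higher in HBs on the standard diet numbered 3 with DESeq2 (4048 of all 13830 genes were higher). They numbered 2 with all 20 libraries (3725 of 14502 genes), sex as a covariate (4462 of 14495) or the length trend removed (3891 of 13830). On the DDDA diet they were 1 with all 20 libraries (4264 of 14502 genes), with sex as a covariate (3029 of 14753) or without the third flow cell (2860 of 13463). In females alone 0 members were higher (6.02% of all genes) and 2 lower (5.93%). Between male and female DDDA livers 2 were lower with DESeq2 (819 of 13059 genes) or with every gene of at least 1 count (1108 of 19065). Between standard diet livers 5 (775 of 13275 genes) and 4 (758 of 20111) were higher with these settings. For diet by sex 12 were higher with either, beside 1.22% and 0.496% of all genes.

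Leaving out 1 library, members higher in HBs ranged from 1 to 3 on the standard diet and from 1 to 2 on the DDDA diet, members higher on DDDA from 0 to 2 in HBs and from 0 to 1 in livers, members higher in males from 3 to 19 and lower from 0 to 1 in DDDA livers, higher from 0 to 3 and lower from 0 to 1 in standard diet livers, and the terms of diet by sex from 0 to 1. For the comparisons by sex, these ranges include the fits that rest on 1 library of a sex. In DDDA livers the upper ends of both ranges come from such fits. Without them, members higher in males ranged from 3 to 17 in DDDA livers and 0 were lower. The other ranges by sex stayed the same. Uncalled values near 0 changed sign in HBs against livers on the standard diet for Pmvk (-0.15 to 0.047), Mvd (-0.12 to 0.20) and Fdps (-0.21 to 0.012). With 5 mice per group and 2 or 3 of each sex, differences in the DDDA groups carried an SE of up to 0.68 on the log2 scale for an enzyme (Mvd, HBs against livers).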
